A study of Homo sapiens with 20 samples.

Results

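The adipocyte lineage is represented here by the loci of 6 genes, PPARG, CEBPA, CEBPB, FABP4, LPL and ADIPOQ, in chromatin accessibility profiles of SW872, an established human liposarcoma cell line. A peak, a stretch of DNA called as accessible by ATAC-seq (transposase cutting of open DNA followed by sequencing), was taken as a member when it overlapped the gene or its flanks, about 20 kb on each side and about 50 kb for CEBPA. Of 1407450 peaks in 7 peak lists, 359 were members, and after merging peaks that overlapped between lists they fell into 86 of 372133 sites. The loci together spanned 505006 bases.

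The study transduced SW872 cells with a pBabeNeo retrovirus and profiled stable populations, so that every group carried the vector backbone. EV was the empty vector. TAZ4SA and YAP5SA were TAZ and YAP with serines exchanged for alanines, forms that escape inhibition by the Hippo kinases. CAMTA1 and TFE3 were the full-length proteins, and TAZ-CAMTA1 and YAP-TFE3 were the fusions found in epithelioid hemangioendothelioma, a vascular sarcoma. The sample titles of the last group name Yap5SA-TFE3. There were 20 libraries, 3 for each vector and 2 for TFE3, and the title of the third EV library says redo. A vector had a single peak list, with the number of reads behind it unknown, so the values have no replicate error and no test between vectors was possible.

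Adipocyte differentiation runs through a cascade of transcription factors. C/EBPβ, the product of CEBPB, is induced early and activates CEBPA and PPARG, whose products C/EBPα and PPARγ then sustain each other. PPARγ is the nuclear receptor required for fat cell formation, and its isoform 2 is transcribed from an internal start used mainly in fat cells. FABP4 (a fatty acid carrier), LPL (lipoprotein lipase, which releases fatty acids from circulating triglyceride) and ADIPOQ (the hormone adiponectin) are products of the differentiated cell. TAZ is known as a coactivator that can hold back PPARγ-dependent transcription, which gives the question of whether the TAZ and YAP forms had less accessible chromatin at these genes.

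A peak is described by 3 values. Its area, deposited by the authors, is the area under the curve of −log10 p along the peak. Its percentile is the rank of that area within its own list, 100 being the largest peak of the list, and a list with no peak at a site was given 0. Its distance is from the gene start along the strand of the gene, negative upstream. Areas depend on sequencing depth, and the lists differed in length from 152702 peaks in TAZ4SA to 236893 in TAZ-CAMTA1, so raw areas do not compare between lists by themselves. At the strong EV sites, the upper 20% of sites with an EV peak by summed EV area (25320 in the genome), the median ratio of a list's area to that of EV was 0.626 in TAZ4SA, 1.16 in YAP5SA, 1.64 in CAMTA1, 0.907 in TFE3, 1.86 in TAZ-CAMTA1 and 1.96 in YAP-TFE3. An area is to be read against that ratio or by its percentile.

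The promoter sequences are shown because accessibility at the start divided the genes: a peak lay within 1 kb of the start of CEBPA, CEBPB, LPL and the upstream start of PPARG in 7 of 7 lists, of PPARG isoform 2 in 3 of 7, and of FABP4 and ADIPOQ in 0 of 7. The 250 bases before the start are given 5′ to 3′ from RefSeq, which matched 4 of the 6 genes. Capitals mark CCAAT and TATAAA.
CEBPA, GRCh38.p14 chr19:33302535-33302784, minus strand: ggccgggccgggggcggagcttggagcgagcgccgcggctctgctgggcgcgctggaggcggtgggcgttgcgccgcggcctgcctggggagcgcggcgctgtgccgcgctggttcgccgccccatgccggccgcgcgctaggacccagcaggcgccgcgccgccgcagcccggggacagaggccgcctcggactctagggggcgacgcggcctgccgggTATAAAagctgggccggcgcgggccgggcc
CEBPB, GRCh38.p14 chr20:50190333-50190582, plus strand: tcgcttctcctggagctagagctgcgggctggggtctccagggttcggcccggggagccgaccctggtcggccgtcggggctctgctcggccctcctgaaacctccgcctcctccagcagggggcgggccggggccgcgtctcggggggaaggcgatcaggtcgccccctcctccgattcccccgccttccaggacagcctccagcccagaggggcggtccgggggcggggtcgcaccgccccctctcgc
PPARG most upstream start, GRCh38.p14 chr3:12287118-12287367, plus strand: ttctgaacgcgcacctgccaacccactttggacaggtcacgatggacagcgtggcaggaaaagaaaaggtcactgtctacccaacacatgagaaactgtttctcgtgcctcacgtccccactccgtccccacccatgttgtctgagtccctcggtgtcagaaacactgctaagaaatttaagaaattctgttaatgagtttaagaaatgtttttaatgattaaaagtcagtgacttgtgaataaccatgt
PPARG most downstream start, GRCh38.p14 chr3:12351167-12351416, plus strand: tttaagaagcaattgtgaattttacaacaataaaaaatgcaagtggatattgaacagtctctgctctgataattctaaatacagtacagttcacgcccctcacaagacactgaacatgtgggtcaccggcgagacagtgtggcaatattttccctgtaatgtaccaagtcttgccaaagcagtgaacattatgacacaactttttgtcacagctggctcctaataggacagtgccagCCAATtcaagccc
ADIPOQ, GRCh38.p14 chr3:186842460-186842709, plus strand: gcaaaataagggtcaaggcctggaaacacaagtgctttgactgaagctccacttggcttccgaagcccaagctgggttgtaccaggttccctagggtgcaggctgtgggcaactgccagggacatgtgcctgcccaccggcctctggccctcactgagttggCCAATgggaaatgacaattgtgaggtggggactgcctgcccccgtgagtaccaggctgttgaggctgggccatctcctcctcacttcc
The windows of CEBPA and CEBPB, both accessible in every list, were rich in CpG dinucleotides, with 41 and 25, and held 81.2% and 75.6% G and C. The ADIPOQ window and that of the most downstream PPARG start held 3 CpG each, with 58.8% and 41.6% G and C. The window of the most upstream PPARG start in RefSeq held 8 CpG at 44.8% G and C. Its place relative to the hg19 start used for distances was not determined, so it is not set beside the peaks. The median over all 35116 RefSeq windows of the same length was 11 CpG and 58% G and C. A TATAAA began 30 bases before the CEBPA start, and 10.7% of all windows held that motif. CCAAT, present in 32% of all windows, began 88 bases before the ADIPOQ start and 13 bases before the downstream PPARG start.

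The 5 windows were also searched on both strands for motifs of factors tied to these vectors and genes. GGAATG (TEAD factors, the DNA-binding partners of TAZ and YAP, in 11.9% of all windows), TGANTCA (AP-1, 6.57%), CACGTG (the E-box of the family of TFE3, 6.34%), TTGCNNCAA (a longer pattern resembling the C/EBP palindrome that cannot match it, 1.62%) and TTGCGCAA (the C/EBP palindrome, 0.131%) were not among these letters. The looser C/EBP form TTNCNNAA, which includes the palindrome and occurs in 33.2% of all windows, had 2 matches at the upstream and 1 at the downstream PPARG start and 0 in the other windows.

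**Figure D1:**
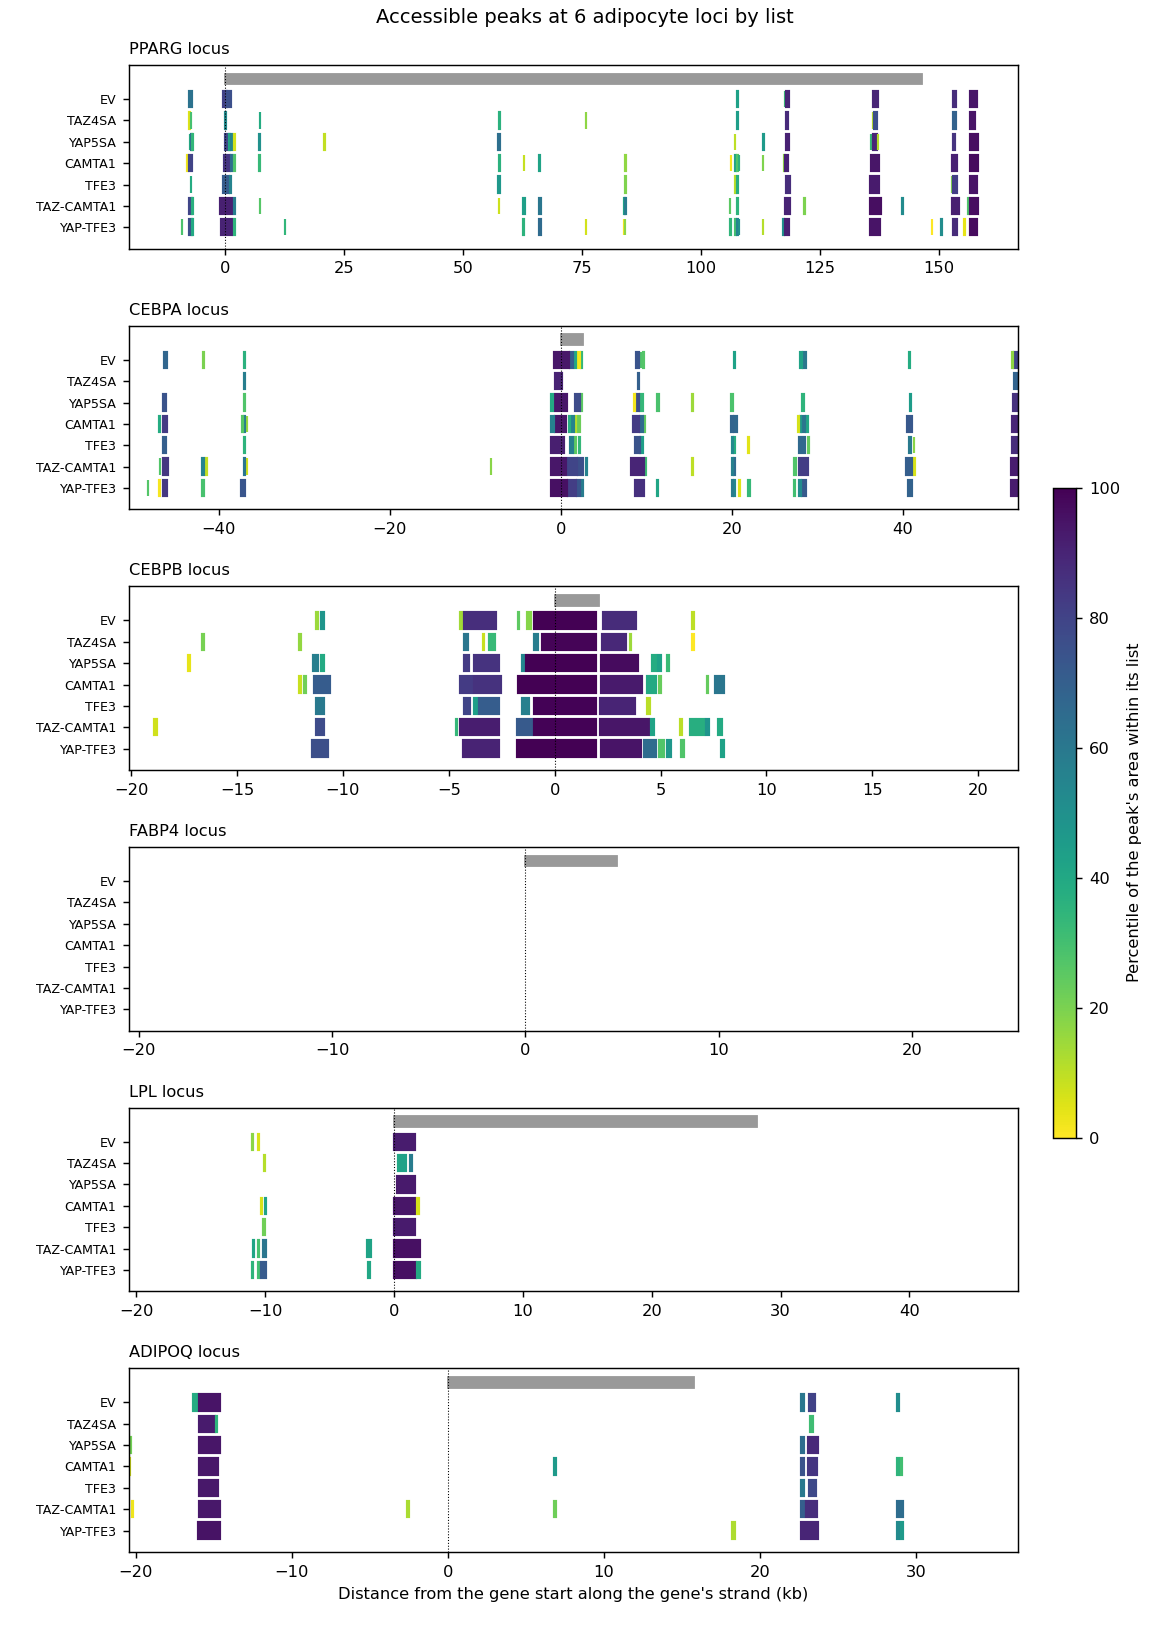
Peaks at the 6 loci in each of the 7 lists (rows), plotted by distance from the gene start in kb along the gene's strand, with the gene as a grey bar and the colour giving the percentile of the peak's area within its list; outlines make narrow peaks look wider than they are. The FABP4 panel is empty in every list, the starts of CEBPA, CEBPB, PPARG and LPL have a peak within 1 kb in all lists, and the CEBPA locus holds 4 peaks in TAZ4SA against 17 in EV.

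Across the 6 loci, EV held 43 peaks, TAZ4SA 33, YAP5SA 49, CAMTA1 64, TFE3 41, TAZ-CAMTA1 65 and YAP-TFE3 64. With equal numbers of peaks taken from every list, YAP5SA held 34 and EV 40, so that YAP5SA was then below EV. The peaks covered 4.33% of the bases of the loci in EV, 2.35% in TAZ4SA, 4.38% in YAP5SA, 5.90% in CAMTA1, 4.60% in TFE3, 7.23% in TAZ-CAMTA1 and 6.64% in YAP-TFE3. TAZ4SA was the lowest and the fusions were the highest. The same order at both ends held for the genome, of which the peaks covered 2.28% in EV, 1.71% in TAZ4SA, 3.67% in TAZ-CAMTA1 and 3.37% in YAP-TFE3. Relative to EV, the bases covered in the loci were 0.542 in TAZ4SA, where the genome gave 0.748, and 1.01 in YAP5SA, where the genome gave 1.23. CAMTA1, TFE3 and the fusions lay near their own lists, with 1.36 against 1.39 for CAMTA1, 1.06 against 1.03 for TFE3, 1.67 against 1.61 for TAZ-CAMTA1 and 1.54 against 1.48 for YAP-TFE3. The summed area over EV was 0.485 in TAZ4SA (genome 0.711), 1.28 in YAP5SA (1.41), 2.23 in TAZ-CAMTA1 (2.04) and 2.46 in YAP-TFE3 (2.17).

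**Figure D2:**
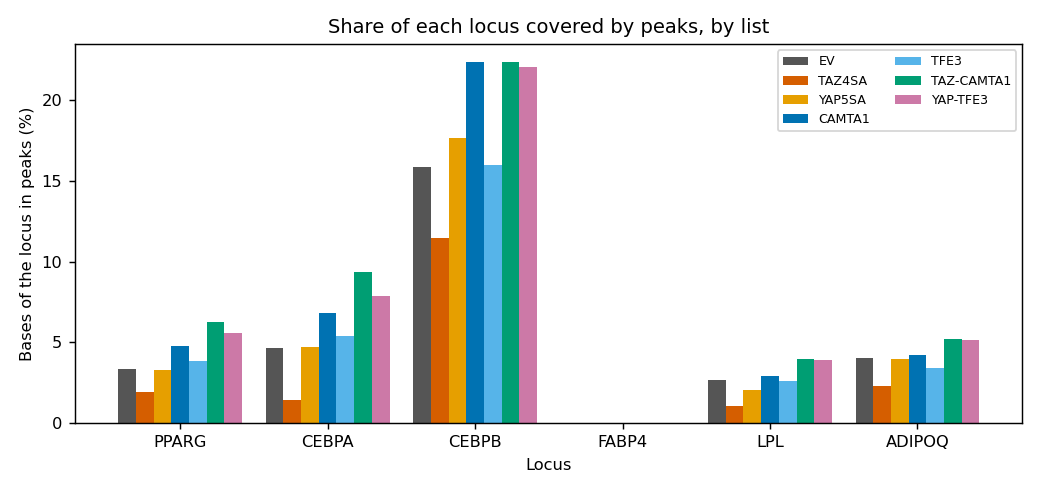
Bars give the percent of the bases of each locus that lie in peaks, for the 7 lists. CEBPB is the most covered locus in every list, from 11.4% in TAZ4SA to 22.4% in CAMTA1 and TAZ-CAMTA1, FABP4 is at 0 in every list, and TAZ4SA is the lowest bar at each of the other 5 loci.

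The transcription factor genes held most of the peaks by number, but their loci differ in length and not each was dense in peaks. In EV the peaks per Mb were 214 at CEBPB, 163 at CEBPA, 87.7 at ADIPOQ, 48.1 at PPARG and 43.5 at LPL. CEBPB, on chromosome 20 at 48787000 to 48829000 in hg19, the build of the lists, had 8 to 13 peaks per list that covered 11.4% to 22.4% of the locus. In EV 15.9% of this locus was covered, against 5.13% of chromosome 20, itself denser in peaks than the genome (132 per Mb against 55.3 per Mb). CEBPA, on chromosome 19 at 33740000 to 33844000, had 4 to 22 peaks and 1.44% to 9.36% covered. PPARG, on chromosome 3 at 12309000 to 12496000, had 9 to 24 peaks and 1.89% to 6.26% covered. ADIPOQ, on chromosome 3 at 186540000 to 186597000, had 3 to 7 peaks, none of them at its start, and 2.29% to 5.23% covered.

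The CEBPB start lay in the most strongly accessible site of the 6 loci. The area of its start peak was 14182 in EV, 7827 in TAZ4SA, 15334 in YAP5SA, 18107 in CAMTA1, 9021 in TFE3, 16550 in TAZ-CAMTA1 and 22575 in YAP-TFE3. By rank within the list it was between 439 (EV) and 1373 (TAZ-CAMTA1), at percentile 99.2 or above in all 7. TAZ4SA and TFE3 had the smallest undivided areas and YAP-TFE3 the largest, yet the rank kept the site among the strongest peaks of every list. Divided by the median ratio of the list, the area summed over the start site lay between 0.645 (TAZ-CAMTA1) and 0.935 (YAP5SA) of EV. TAZ4SA was at 0.891 and TFE3 at 0.713.

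The sites that flank the CEBPB start differed more between the lists. At 3.5 kb upstream the area summed over the site was 1364 in EV, 225 in TAZ4SA, 2072 in YAP5SA, 2988 in CAMTA1, 1417 in TFE3, 4007 in TAZ-CAMTA1 and 3341 in YAP-TFE3. By area TAZ4SA was alone below EV at this site, at 0.165 of EV and at 0.264 when divided by the median ratio of its list. By percentile of the largest peak other lists were below EV too. It was 86.8 in EV, 60.7 in TAZ4SA, 85.5 in YAP5SA, 85.6 in CAMTA1 and 79.4 in TFE3. The fusions were above EV, at 91.8 in TAZ-CAMTA1 and 90.3 in YAP-TFE3. At 3.5 kb downstream of the start, past the gene end, the area was 1458 in EV, 1446 in TAZ4SA, 6306 in YAP5SA, 4811 in CAMTA1, 2426 in TFE3, 5995 in TAZ-CAMTA1 and 7111 in YAP-TFE3. Divided by the median ratio of the list, this site was above EV in all 6 lists, by the least in TAZ4SA (1.58) and by the most in YAP5SA (3.73).

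The CEBPA start peak had an area of 3744 in EV, 1691 in TAZ4SA, 3767 in YAP5SA, 5325 in CAMTA1, 2826 in TFE3, 5581 in TAZ-CAMTA1 and 7829 in YAP-TFE3. Its summit lay 128 to 82 bases before the start in every list, within the promoter window printed above, and its percentile ran from 90.4 in TAZ4SA to 95.7 in YAP-TFE3. The start itself was therefore accessible at a similar rank with every vector. Around it TAZ4SA kept 3 other sites, at 53.8 kb and 9.0 kb downstream and 37.1 kb upstream. In TAZ4SA 13 of the 17 EV peaks of this locus had no overlapping peak, against 5 in YAP5SA, 3 in CAMTA1, 3 in TFE3 and 0 in both fusions. Over all EV peaks of the genome 49.5% had none in TAZ4SA, 28.9% in YAP5SA, 20.2% in CAMTA1, 30.8% in TFE3, 14.4% in TAZ-CAMTA1 and 19% in YAP-TFE3, so the counts of YAP5SA and CAMTA1 were near their background. The peaks that TAZ4SA lacked were of low to middle strength, the largest of them having an EV area of 308, percentile 71.2. The site 28.5 kb downstream of CEBPA was at percentile 60.2 in EV, 0 in TAZ4SA, 35.1 in YAP5SA, 60.7 in CAMTA1, 66.2 in TFE3, 82.0 in TAZ-CAMTA1 and 72 in YAP-TFE3. The site 46.2 kb upstream, at percentile 67.4 in EV and 69.9 to 84.2 in the other 5 lists, likewise had no TAZ4SA peak.

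At PPARG the upstream start was accessible in every list but weakly in TAZ4SA. The area summed over the start site was 1054 in EV, 104 in TAZ4SA, 840 in YAP5SA, 1834 in CAMTA1, 645 in TFE3, 3623 in TAZ-CAMTA1 and 3366 in YAP-TFE3. The start peak stood at percentile 80.3 in EV, 52.7 in TAZ4SA, 79.0 in YAP5SA, 84.4 in CAMTA1, 71.1 in TFE3, 91.1 in TAZ-CAMTA1 and 90.3 in YAP-TFE3. Both measures were lowest in TAZ4SA and highest in the fusions. The start of isoform 2 lay in no peak. Peaks 735 to 786 bases from it were called in CAMTA1, TAZ-CAMTA1 and YAP-TFE3, at percentiles 8.77, 44.1 and 35.6, and in EV the nearest peak was 43943 bases away.

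The strongest PPARG sites were not at either start but near the far end of the gene. The site 157.4 kb from the upstream start, past the gene end, had an area of 3651 in EV, 3071 in TAZ4SA, 5397 in YAP5SA, 8272 in CAMTA1, 3995 in TFE3, 8680 in TAZ-CAMTA1 and 9630 in YAP-TFE3, at percentiles from 93.8 to 97.0. A site inside the gene at 136.7 kb had 1920 in EV, 404 in TAZ4SA, 2088 in YAP5SA, 5537 in CAMTA1, 3107 in TFE3, 7796 in TAZ-CAMTA1 and 6549 in YAP-TFE3. By undivided area the lists disagreed more at 136.7 kb than at 157.4 kb, with TAZ4SA the lowest at both. Divided by the median ratio of the list, TAZ4SA was at 0.336 of EV at 136.7 kb. At 157.4 kb it was at 1.34, and its percentile there was 94.7 against 93.8 in EV. Another site, 153.5 kb from the start, was at percentile 87.5 in EV, 68.8 in TAZ4SA, 84.8 in YAP5SA and 82.0 in TFE3. It was at 90.8 in CAMTA1, 91.1 in TAZ-CAMTA1 and 87.8 in YAP-TFE3. Divided by the median ratio of the list, its area was at 0.258 of EV in TAZ4SA and 0.654 in YAP5SA. Peaks without an EV counterpart also occurred inside the gene. A site at 57.5 kb, 6 kb before the isoform 2 start, had no peak in EV or YAP-TFE3 and stood at percentile 63.8 in YAP5SA, 36.2 in TAZ4SA, 36.3 in CAMTA1, 46.6 in TFE3 and 7.78 in TAZ-CAMTA1. A site at 66.2 kb had peaks in CAMTA1, TAZ-CAMTA1 and YAP-TFE3 only, at percentiles 42.1, 60.7 and 65.6.

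**Figure D3:**
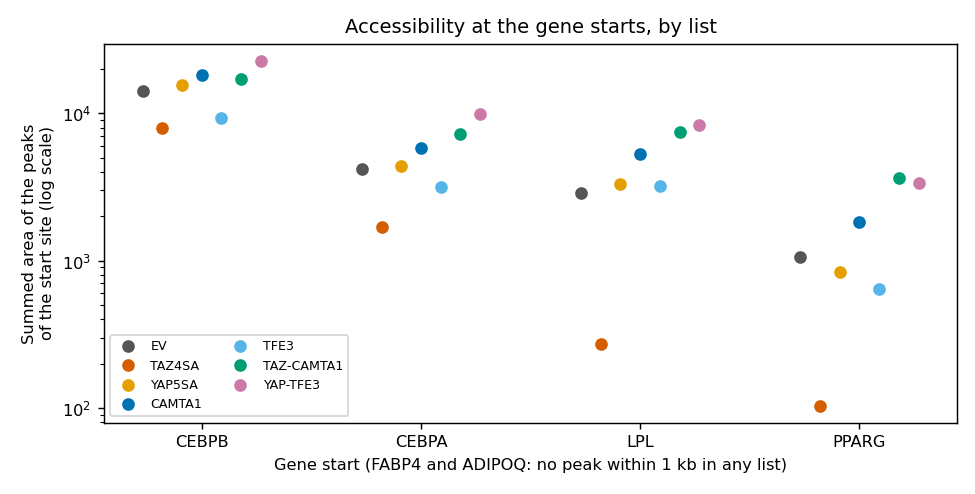
Points give the area summed over the site at the gene start, on a log axis and not divided by the median ratio of the list, for the 7 lists at 4 genes. At LPL the TAZ4SA point is at 271 and the other 6 lie between 2898 and 8315, while at CEBPB and CEBPA all lists lie within a narrower range.

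The product genes gave 3 different pictures. LPL had 1 to 6 peaks per list and a start site that was strong in 6 lists. The start base itself lay in a peak in 2 lists only, TAZ-CAMTA1 and YAP-TFE3. The summit of the largest peak within 1 kb lay 669 to 1344 bases past the start, inside the gene. The area summed over the site at the LPL start was 2898 in EV, 271 in TAZ4SA, 3324 in YAP5SA, 5334 in CAMTA1, 3198 in TFE3, 7514 in TAZ-CAMTA1 and 8315 in YAP-TFE3. TAZ4SA stood apart from the rest, its best peak in the site being at percentile 58.4 where the other lists were at 92.3 to 96.0. YAP5SA, the other hyperactive form, was at 1.15 of EV, where its median strong site was at 1.16. A weaker LPL site 10.1 kb upstream had no peak in EV or YAP5SA and stood at percentile 11.3 in TAZ4SA, 42.1 in CAMTA1, 21.8 in TFE3, 60.8 in TAZ-CAMTA1 and 71.5 in YAP-TFE3.

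ADIPOQ had no peak within 1 kb of its start in any list, the nearest lying 2526 to 14776 bases away. Its strongest site was 15.3 kb upstream, with an area of 4116 in EV, 2447 in TAZ4SA, 4081 in YAP5SA, 5164 in CAMTA1, 3395 in TFE3, 5242 in TAZ-CAMTA1 and 6942 in YAP-TFE3. Its summits fell within 9 bases of each other in the 7 lists and its percentile stayed between 92.9 and 95, the steadiest of the strong sites away from a start. A site 23.2 kb from the start, past the gene end, was at percentile 80.4 in EV, 31.2 in TAZ4SA, 88.4 in YAP5SA, 84.6 in CAMTA1, 78.0 in TFE3, 86.9 in TAZ-CAMTA1 and 89.8 in YAP-TFE3. Annotation of neighbouring genes in the build of the lists was not used here, so sites away from a start cannot be assigned to the gene they are named after.

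FABP4 had 0 peaks in all 7 lists. The nearest peak to its start was 50583 bases away in YAP5SA and 68497 bases away in TFE3, with the others between, and the stretch without a peak around the locus ran from 147348 to 233179 bases. Of 67259 windows of 46001 bases, the length of the FABP4 locus, 32.9% held no peak in any list, and on the same chromosome 26.3% did. These windows ran over whole chromosomes, including stretches where no peak could be called, which raises both shares by an amount not determined.

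The direct question for the TAZ and YAP forms was which EV peaks they lacked. Of the 43 EV peaks at the 6 loci, 25 had no TAZ4SA peak, 58.1% (Wilson 95% interval 43.3 to 71.6, counting error only), where 49.5% of all EV peaks of the genome had none. YAP5SA lacked 14, 32.6% (20.5 to 47.5), against 28.9%. CAMTA1 lacked 7, 16.3% (8.12 to 30.0), against 20.2%, and TFE3 lacked 11, 25.6% (14.9 to 40.2), against 30.8%. The background share lay inside the interval in each of these 4 lists, so the absence of EV peaks was not distinguishable from that of the whole list. With peaks of −log10 p from 5 upwards the share was 27.8% against 35.7% in TAZ4SA and 5.56% against 16.3% in YAP5SA, so that both were then below their background. When the loci were cut to the gene and about 5 kb on each side, the TAZ4SA share of 19 EV peaks was 47.4%, below the 49.5% of the genome by a small margin. TAZ-CAMTA1 lacked 1, 2.33% (0.412 to 12.1), against 14.4%, and YAP-TFE3 lacked 3, 6.98% (2.40 to 18.6), against 19%. In the fusions the share was below that of the genome and the background lay above the interval, by a small margin in YAP-TFE3. With equal numbers of peaks this held in TAZ-CAMTA1, at 5% (1.38 to 16.5) against 18% ranked by −log10 p and 17.2% ranked by area. In YAP-TFE3 the share was 10% (3.96 to 23.1). Its background was 23.1% by −log10 p, at the upper limit, and 22.4% by area, inside the interval. The difference did not hold in either fusion with peaks of −log10 p from 4 upwards, where both shares were 5.56% (1.54 to 18.1) against 13% and 16.7%, from 5 upwards (0% against 4.78% and 6.71%), or with 250 bp windows around the summits, where they were 9.3% (3.68 to 21.6) against 21% and 14% (6.56 to 27.3) against 21.7%. Nor did it hold when an overlap of 50% of both peaks was required, with 58.1% against 60.5% in TAZ-CAMTA1 and 53.5% against 58.1% in YAP-TFE3. Neighbouring peaks of a locus are not independent, and the intervals are too narrow for that reason.

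Peaks without an EV counterpart made up 6 of 33 in TAZ4SA, 18.2% (8.61 to 34.4, genome 33.9%), and 20 of 49 in YAP5SA, 40.8% (28.2 to 54.8, genome 47.9%). In CAMTA1 they were 32 of 64, 50% (38.1 to 61.9, genome 46.8%), and in TFE3 10 of 41, 24.4% (13.8 to 39.3, genome 27.6%). In TAZ-CAMTA1 they were 34 of 65, 52.3% (40.4 to 64.0, genome 51.5%), and in YAP-TFE3 34 of 64, 53.1% (41.1 to 64.8, genome 50.7%). All 6 backgrounds lay inside the interval. No site of the loci had an EV peak of the upper 50% of its list and none of TAZ4SA, YAP5SA and the fusions. Likewise no site had a peak of all 4 without one of EV. The share of such sites over the genome was not determined, so neither absence can be read as a trait of the loci.

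**Figure D4:**
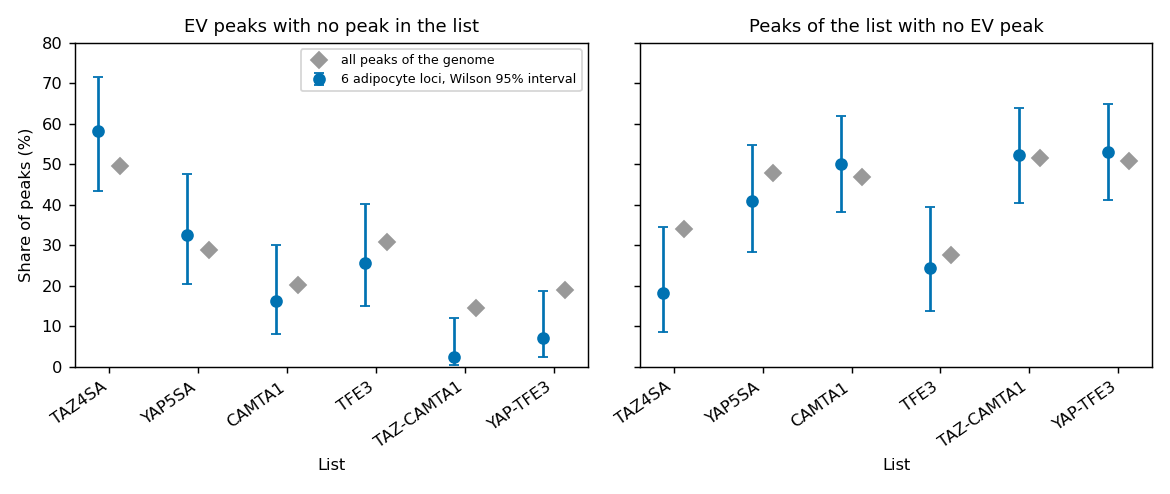
Blue points give the percent of EV peaks with no peak in a list (left) and of a list's peaks with no EV peak (right) at the 6 loci, with Wilson 95% intervals for counting error, and grey diamonds give the same percent over the genome. TAZ4SA has the highest share of missing EV peaks at the loci, 58.1%, and in the genome, 49.5%.

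Of the 86 sites, 16 had a peak in all 7 lists, 18.6% (Wilson 95% interval 11.8 to 28.1) against 16.2% of all sites. They were 6 at PPARG, 4 at CEBPA, 3 at CEBPB, 1 at LPL and 2 at ADIPOQ. These shared sites were wide, with a median of 1795 bases against 157 for the other 70. A further 26 sites, 30.2%, belonged to a single list, against 42.3% of all sites. Of the 26, 11 were of TAZ-CAMTA1, 8 of YAP-TFE3, 3 of CAMTA1, 2 of YAP5SA, 1 each of EV and TAZ4SA and 0 of TFE3. Of the 157314 such sites in the genome, 34791 were of TAZ-CAMTA1, 30025 of YAP-TFE3 and 21038 of CAMTA1. YAP5SA had 39242 of them, EV 12398, TAZ4SA 18298 and TFE3 1522. The fusions thus had the most such sites at the loci and YAP5SA the most in the genome, a difference that was not tested. None of the 26 was wider than 294 bases.

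Weaker sites made up the rest of the largest differences in percentile. Toward TAZ4SA and YAP5SA, the higher values were at PPARG sites inside the gene that EV lacked, the site at 57.5 kb given above, the site at 7.2 kb with 38.9 in TAZ4SA and 49.9 in YAP5SA, and the site at 113.2 kb with 45.9 in YAP5SA and no TAZ4SA peak. The lower values were at the CEBPA site 28.5 kb downstream given above, the CEBPA site 20.4 kb downstream, which was at 42.3 in EV, 0 in both forms and 65.1 in TAZ-CAMTA1, and the ADIPOQ site 29.0 kb from the start, which was at 51.3 in EV, 0 in both forms and 64.7 in TAZ-CAMTA1. Toward the fusions, a CEBPA site 20.1 kb downstream had no EV peak and stood at 56.8 in TAZ-CAMTA1 and 57.9 in YAP-TFE3, beside the LPL site at 10.1 kb and the PPARG site at 66.2 kb. Below EV in the fusions, the largest difference was at a site 16.2 kb upstream of ADIPOQ that EV alone held, at 38.9, and the next were the ADIPOQ site at 15.3 kb and the CEBPB start, both within 1 percentile of EV in each fusion.

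Presence of a peak does not show how strong it was, so the strong EV sites were compared by area. Of the 25320, 10 were at the loci, and all 10 had a peak in every list. For each list the ratio of its area to EV was divided by its median ratio over the 25320 sites. On this scale a value of 1 is the typical strong site of that list. In TAZ4SA 4 of the 10 were at 0.5 or less, where 13.9% of all strong sites were. They were the LPL start at 0.149, the PPARG sites at 153.5 kb (0.258) and 136.7 kb (0.336) and the CEBPB site 3.5 kb upstream (0.264). Among the strong sites of the genome the LPL start was at percentile 2.74 of this ratio in TAZ4SA. The CEBPA start was at 0.643, the CEBPB start at 0.891 and the ADIPOQ site 15.3 kb upstream at 0.95. Above 1 were the PPARG sites at 118.1 kb (1.03) and 157.4 kb (1.34) and the CEBPB site 3.5 kb downstream (1.58). The lower values were therefore not shared by all strong sites of the loci, nor by all those of PPARG. With the upper 10% of EV sites, 4 of which were at the loci, 0 were at 0.5 or less in TAZ4SA and 5.13% of the genome's were, since the 4 low sites had EV areas below that limit.

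None of the 10 sites was at 0.5 or less in YAP5SA (genome 4.12%), CAMTA1 (2.28%), TFE3 (2.8%), TAZ-CAMTA1 (2.2%) or YAP-TFE3 (3.3%). At 2 or more were 0 in TAZ4SA (genome 5.2%), 1 in YAP5SA (5.81%), 1 in CAMTA1 (2.18%), 0 in TFE3 (0.92%), 2 in TAZ-CAMTA1 (1.27%) and 1 in YAP-TFE3 (1.99%). The CEBPB site 3.5 kb downstream accounted for 4 of these 5 values, with 3.73 in YAP5SA, 2.01 in CAMTA1, 2.21 in TAZ-CAMTA1 and 2.48 in YAP-TFE3. It was also above 1 in TFE3, at 1.83, and in TAZ4SA, at 1.58. The remaining value was the PPARG site at 136.7 kb in TAZ-CAMTA1, at 2.19. That site was above 1 in CAMTA1 (1.75), TFE3 (1.78) and YAP-TFE3 (1.74). In YAP5SA (0.937) it was close to the typical strong site of its list, and in TAZ4SA (0.336) it was well below. All 6 ratios share the EV list, which includes the library titled redo, and the part of that library in them was not tested.

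**Figure D5:**
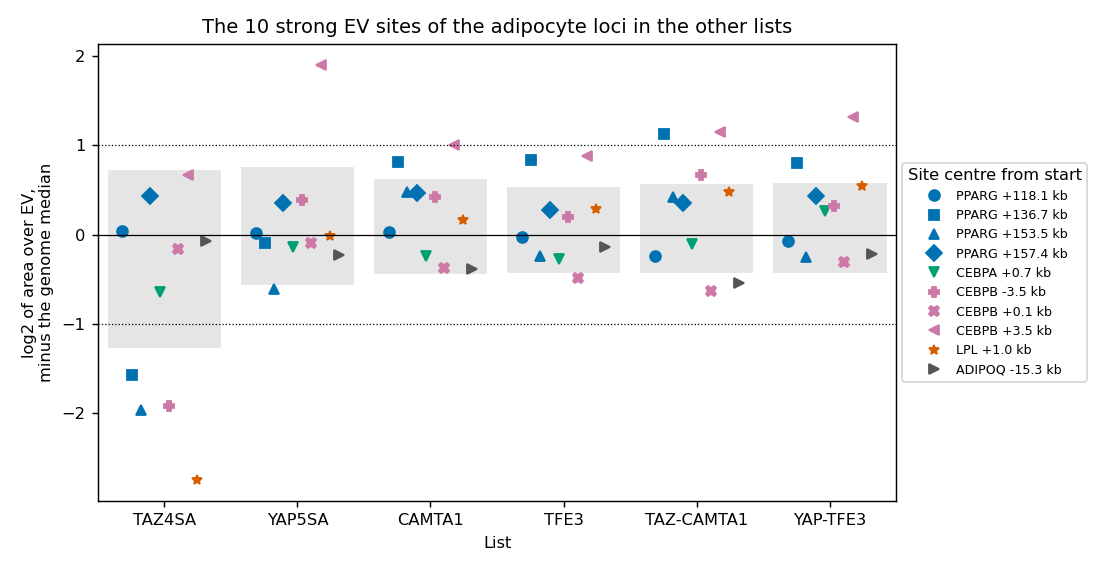
The 10 strong EV sites of the loci in each other list, as log2 of the area over EV minus the log2 of the median ratio of the list's strong sites, with grey boxes from the tenth to the ninetieth percentile of all 25320 strong sites and dotted lines at a ratio of 0.5 and of 2. In TAZ4SA 4 sites lie under the lower dotted line, the LPL start lowest at -2.74, and the CEBPB site at 3.5 kb is the highest in YAP5SA at 1.90.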

How the data were processed

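ATAC-seq libraries of SW872 cells were grouped by the vector in their titles. According to the methods of the study, the authors trimmed reads with NGmerge, aligned them with BWA-MEM and called peaks with Genrich in its ATAC mode after removing duplicates. The submitters' processing notes instead list the build mm8 and Bowtie 0.12.2, but the chromosome names and ends of the peaks are those of hg19. Calling on each replicate is described, whereas 1 list per vector was deposited, and how libraries were combined is not given in the sources used here.

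The deposited signal of a peak is its area under the curve of −log10 p, over coverage above background. The authors also deposited the −log10 p and −log10 q of the summit, its offset, and a score (mean area per base, capped), which was not used. Areas were ranked within a list, and positions count from 1.

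The members, gene lists and sites described were chosen with earlier results of these data known. Described are the sites at gene starts, the 2 sites of each locus with the highest median percentile, and the sites with the largest difference in percentile between EV and the mean of TAZ4SA and YAP5SA or of the fusions. The strong sites, their ratios and TATAAA were chosen after seeing the data, and further sites in all lists were described with their values known. Peaks were shared at an overlap of 1 bp or more, and overlapping peaks were merged into sites. Gene starts are those of RefSeq on hg19, entered by hand, and the gene lengths differed from RefSeq on GRCh38 by 0 to 470 bp. Other adipocyte genes were not analysed here, since no annotation of the build of the lists was used. Intervals are Wilson 95% intervals for counting error. Interval and overlap functions were tested on simulated data. Python 3.11.15, pandas 2.3.3 and numpy 2.4.6 were used. Alternatives were summit −log10 p of at least 4 or 5, equal numbers of peaks (152702), an overlap of 50%, windows of 250 bp around summits, loci cut to the gene and about 5 kb, and other distances from the start.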

Additional observations from a re-analysis of the deposited data

How the results depend on the processing

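When weaker peaks were removed, keeping those with a summit −log10 p from 5 upwards, the EV peaks lacking in a list were 27.8% for TAZ4SA (35.7% in the genome), 5.56% for YAP5SA (16.3%) and for CAMTA1 (7.65%), and 0% for TAZ-CAMTA1 (4.78%) and YAP-TFE3 (6.71%), so that TAZ4SA and YAP5SA were then below their background instead of above it, and the cause was not tested. The loci then held 18 peaks in EV, 15 in TAZ4SA, 22 in YAP5SA, 28 in CAMTA1, 19 in TFE3, 31 in TAZ-CAMTA1 and 32 in YAP-TFE3. Equal numbers of peaks gave 43 for TAZ-CAMTA1 by −log10 p, and 42 for CAMTA1 and for YAP-TFE3 by area, near the 40 of EV, and by either ranking YAP5SA held 34, fewer than EV instead of more. An overlap of 50% of both peaks raised the lacking EV peaks to 76.7% for TAZ4SA (70.2% in the genome), 55.8% for YAP5SA (58.3%) and 51.2% for CAMTA1 (56.4%). For TFE3 they were 48.8% (53.7%), for TAZ-CAMTA1 58.1% (60.5%) and for YAP-TFE3 53.5% (58.1%). YAP5SA was then below its background instead of above it, and TAZ4SA stayed above. The background lay inside the interval in both, 41.1 to 69.6 for YAP5SA and 62.3 to 86.8 for TAZ4SA. Loci cut to the gene and about 5 kb on each side, which hold fewer peaks by construction, gave 19 peaks in EV, 20 in TAZ4SA, 26 in YAP5SA, 31 in CAMTA1, 20 in TFE3, 32 in TAZ-CAMTA1 and 33 in YAP-TFE3, and 9 sites in all lists. The EV peaks lacking were then 47.4% for TAZ4SA (49.5% in the genome), 31.6% for YAP5SA (28.9%) and 10.5% for CAMTA1 (20.2%). For TFE3 they were 26.3% (30.8%), for TAZ-CAMTA1 0% (14.4%) and for YAP-TFE3 10.5% (19%). TAZ4SA was thus below its background with the narrow flanks, by a small margin. These shares are of 19 EV peaks, and no interval is given for them. A window of 200 bp left 0 lists with a peak at the PPARG isoform 2 start, and one of 5 kb gave 1 list at ADIPOQ. At the LPL start the window of 200 bp left 5 lists. TAZ4SA and YAP5SA dropped out, with nearest peaks 313 and 247 bases away. The upper 10% of EV sites left 0 low sites in TAZ4SA. The summed area of a locus over EV changed its side of 1 in 5 of 30 cases by bases covered and in 10 of 30 as a share of the list's area. The latter put CEBPB and ADIPOQ below EV in both fusions (0.809 and 0.914, and 0.789 and 0.941) and PPARG, CEBPA, LPL and ADIPOQ below EV in YAP5SA. No paired analysis was possible because a vector has a single list without values of its libraries, and leaving out a replicate was not run for the same reason. Depth is unknown, so a missing peak is one not called, not a closed site.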
